A study of Mus musculus with 13 samples.

Results

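The 10 genes described here are genes that the unfolded protein response of the endoplasmic reticulum (ER) is known to raise: Hspa5, Hsp90b1, Sdf2l1, Dnajb9, Dnajc3, Creld2, Manf, Xbp1, Edem1 and Herpud1. They were taken by gene name from the non-control probes of the arrays, and made up 10 of the 17257 genes tested and 11 of the 55681 probes on each array. All 11 member probes passed the filter on dim probes, as did 22715 probes in all. Gene expression was measured on 2-colour Agilent arrays in the gastrocnemius, a mostly fast-twitch muscle of the calf. The samples were 7 male C57BL/6J mice with a UCP1 transgene (UCP1-TG) and 6 wild-type (WT) littermates, with 1 array per mouse. UCP1, normally a protein of brown fat, makes the inner mitochondrial membrane leak protons, so that fuel is burned without ATP being made. Both groups ate the same purified low fat diet for 12 weeks, and the labels give an age of 12 weeks without saying whether this was the age at the start. Which promoter drives the transgene is not stated in the labels. The RNA of the single mouse was labelled with Cy5 and a common pool with Cy3, so each value below is the log2 ratio of 1 mouse to that pool. A ratio says how a mouse stood against the pool, and ratios of different genes are not levels that can be set against each other.

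When unfolded proteins gather in the ER, the chaperone BiP, encoded by Hspa5, leaves the lumenal side of 3 membrane sensors, IRE1 (Ern1), PERK (Eif2ak3) and ATF6 (Atf6). IRE1 cuts the mRNA of Xbp1, whose spliced form encodes a transcription factor, ATF6 is cleaved to release another, and PERK phosphorylates the initiation factor eIF2-alpha, which raises translation of ATF4. XBP1 and ATF6 raise chaperones and degradation factors, among them the 10 genes described here, while ATF4 and CHOP (Ddit3) raise genes of amino acid synthesis and stress and can also be switched on by kinases other than PERK. In skeletal muscle the ER is continuous with the sarcoplasmic reticulum, the calcium store of contraction. The comparison bears on the question of how far the genes of the ER response differed between the muscles of the transgenic mice and those of their littermates.

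The promoters of several members held the DNA elements through which the response is known to act. Stretches are shown for Herpud1 and Dnajb9, the members whose groups did not overlap, and for the 4 members that held the ER stress response element. Promoter windows from 250 bases before to 50 bases after the gene's start were taken from RefSeq (GRCm38.p6), which gave a window for 9 of the 10 members, with Manf named only. Both strands were searched for the ER stress response element ERSE (CCAAT, 9 bases of any kind, then CCACG), for ERSE-II (ATTGG, 1 base of any kind, then CCACG), for the unfolded protein response element UPRE (TGACGTGG) and for the C/EBP-ATF response element CARE (TGATGNAAN), and matches to different elements were allowed to overlap. Capitals mark the matches, all sequences run 5′ to 3′ on the strand of the gene, and a match on the other strand appears as its reverse complement. The stretches are chr8:94386301-94386402 (plus strand) for Herpud1, chr12:44210069-44210218 (minus strand) for Dnajb9, chr2:34772010-34772058 (plus strand) for Hspa5, chr10:86705518-86705671 (minus strand) for Hsp90b1, chr14:118937812-118937860 (plus strand) for Dnajc3 and chr15:88819505-88819553 (plus strand) for Creld2.
Herpud1: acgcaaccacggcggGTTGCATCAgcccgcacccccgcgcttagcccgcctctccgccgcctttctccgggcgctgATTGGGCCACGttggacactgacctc
Dnajb9: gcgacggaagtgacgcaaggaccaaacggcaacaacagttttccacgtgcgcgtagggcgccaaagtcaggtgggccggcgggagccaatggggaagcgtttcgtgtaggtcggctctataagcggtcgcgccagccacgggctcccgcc
Hspa5: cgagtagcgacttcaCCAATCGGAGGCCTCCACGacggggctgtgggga
Hsp90b1: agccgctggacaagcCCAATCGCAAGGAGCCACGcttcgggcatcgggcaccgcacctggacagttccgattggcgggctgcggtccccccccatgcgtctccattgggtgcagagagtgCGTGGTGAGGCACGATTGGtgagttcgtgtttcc
Dnajc3: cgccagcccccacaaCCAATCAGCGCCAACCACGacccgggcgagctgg
Creld2: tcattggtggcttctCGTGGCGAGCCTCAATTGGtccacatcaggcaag
ERSE was found in 4 of the 9 member windows, those of Hspa5, Hsp90b1, Dnajc3 and Creld2, and in 39 of all 32851 windows (0.119%). In Hspa5 it lay 65 to 47 bases before the start and in Creld2 126 to 108, while Hsp90b1 held 2 matches, at 212 to 194 and at 107 to 89 bases before the start. Herpud1 held ERSE-II, 52 to 42 bases before the start (0.0365% of all windows), and CARE, whose far end lay 113 bases before it (3.95% of all windows). UPRE was in 0 of the 9 member windows and in 0.676% of all windows. The window of Dnajb9 held none of the 4 elements, which says only that these letters are not in that window.

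Across all genes, 2910 of 17257 were higher in UCP1-TG than in WT muscle (16.9%) and 2785 were lower (16.1%), 33% in all, at an adjusted p under 0.05 (limma, Benjamini-Hochberg over all genes tested). The median difference over all genes was −0.00 on the log2 scale. When each array was only centred on its median, without loess, the split was 1039 higher against 264 lower and the median of all genes moved to 0.14. Each array had 20639 to 24032 probes well above background (37.1% to 43.2%), with 22832 ± 1251 in UCP1-TG and 21912 ± 1140 in WT mice (SD, n = 7 and 6, exact permutation test, two-sided, p = 0.188). The number of arrays limits the precision of every value below.

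The transgene's own gene was checked before the members. Ucp1 had log2 ratios of −0.20 to 0.85 (median 0.34) in the 7 UCP1-TG mice and of −4.23 to 0.45 (median −3.59) in the 6 WT mice. One WT array, number 4, lay at 0.45, among the UCP1-TG values, while the other 5 WT arrays lay at −4.23 to −2.82. The library labelled WT number 4 thus went against its label by Ucp1, although Fgf21, a hormone gene that was 16.2-fold higher in UCP1-TG muscle (log2 difference 4.02 ± 0.17 SE, limma adjusted p = 8.2e-13), was at −3.60 on it, within the WT range of −3.65 to −3.14 and below the UCP1-TG range of −0.19 to 1.12. Trib3 and Asns, the named genes with larger differences than Fgf21, were at −3.77 and −3.40 on this array. Their WT ranges were −4.10 to −3.44 and −3.61 to −3.22. Whether the label of this array is right was not tested. Results below are given with all 13 arrays and also without this one where it decides a value. Without it the test called 2889 genes higher and 2741 lower.

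Of the 10 members, 3 were higher in UCP1-TG muscle, Herpud1, Dnajb9 and Manf, and 0 were lower (limma, adjusted p under 0.05), against 16.9% of all genes higher and 16.1% lower. At an unadjusted p under 0.05, 4 were higher, with Xbp1 as the added one, and 0 were lower. At least 7225 of the 17257 genes tested passed that unadjusted threshold in either direction, since Xbp1 ranked number 7225 by its p. How many of those genes were higher was not counted. The differences ran between −0.14 and 0.75 on the log2 scale with a median of 0.21. In 2 members, Herpud1 and Dnajb9, the groups did not overlap, all 7 UCP1-TG mice being above all 6 WT mice, against 7.47% of all genes, and no member had all UCP1-TG mice below all WT mice, against 7.26%. Without the library labelled WT number 4, the same 3 members passed the test and the median of the 10 differences was 0.12.

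**Figure D1:**
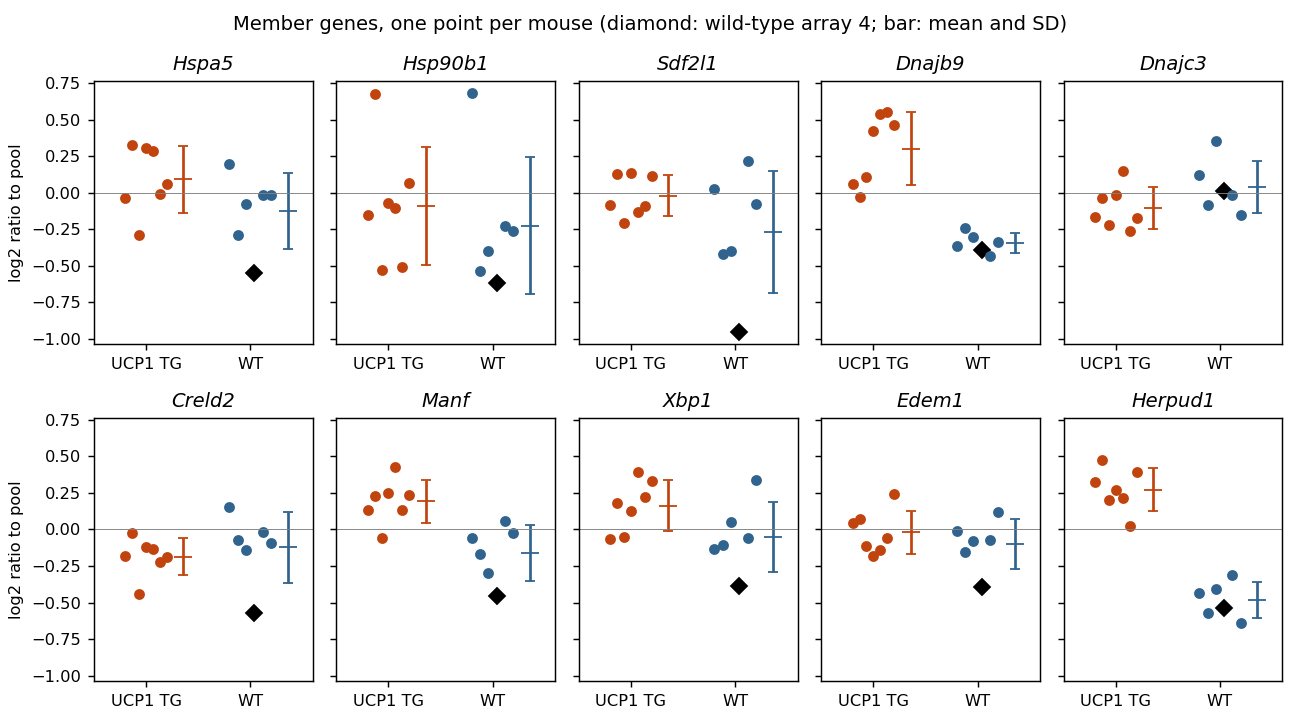
Log2 ratio to the pool (vertical axis) of the 10 member genes, 1 panel per gene and 1 point per mouse, UCP1-TG left and WT right, with the group mean and SD beside the points. The UCP1-TG points of Herpud1 (0.02 to 0.47) and Dnajb9 (−0.03 to 0.55) are all above the WT points, and the library labelled WT number 4 (diamond) is the lowest point in 7 of the 10 panels.

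Herpud1 encodes an ER membrane protein that holds together complexes of ER-associated degradation, the route by which misfolded proteins are drawn out of the ER and destroyed. Its log2 ratios were 0.02 to 0.47 (median 0.27) in UCP1-TG mice and −0.64 to −0.31 (median −0.48) in WT mice. Every UCP1-TG mouse was above every WT mouse. The group means were 0.27 ± 0.15 in UCP1-TG and −0.48 ± 0.12 in WT mice (SD), a difference of 0.75 ± 0.08 (SE), or 1.69-fold (95% interval 1.51 to 1.88, limma adjusted p = 3.1e-07). The difference was 0.83, 0.69, 0.78 and 0.68 within slides 1 to 4, so it had about the same size on each slide. Herpud1 ranked number 537 of the 17257 genes by the size of its difference. Its probe lies at chr8:96919117-96919176 (plus strand, mm9).

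Dnajb9 encodes ERdj4, a J-domain co-chaperone of BiP that is a known target of spliced XBP1. On its brighter probe (chr12:45307313-45307372, minus strand, mm9) the log2 ratios were −0.03 to 0.55 (median 0.42) in UCP1-TG mice and −0.43 to −0.24 (median −0.35) in WT mice. No UCP1-TG mouse was as low as any WT mouse. The UCP1-TG mice fell at 2 levels that followed the slides: mice 1 to 3, on slides 1 and 2, were at 0.06, −0.03 and 0.10, and mice 4 to 7, on slides 3 and 4, were at 0.42, 0.54, 0.55 and 0.46. WT mice showed no such step, with −0.36, −0.24 and −0.30 on slides 1 and 2 and −0.39, −0.43 and −0.33 on slides 3 and 4. The part of the slide in this step was not tested. The mean was 0.30 ± 0.25 in UCP1-TG and −0.34 ± 0.07 in WT mice (SD), a difference of 0.65 ± 0.09 (SE), or 1.57-fold (95% interval 1.36 to 1.79, limma adjusted p = 2.6e-05). Within slides 1 to 4 it was 0.38, 0.38, 0.87 and 0.89. A dimmer probe of Dnajb9 at chr12:45308272-45308331 was well above background on 6 of 7 UCP1-TG and 4 of 6 WT arrays, and differed by 0.21 ± 0.07 (limma adjusted p over all probes = 0.029), in the same direction as the brighter one.

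Manf encodes a small ER protein that binds BiP and is secreted under ER stress. Its log2 ratios were −0.06 to 0.42 (median 0.23) in UCP1-TG mice and −0.46 to 0.06 (median −0.11) in WT mice. The groups overlapped through UCP1-TG mouse 3, at −0.06, which was below WT mice 5 and 6, at 0.06 and −0.03. The mean was 0.19 ± 0.15 in UCP1-TG and −0.16 ± 0.19 in WT mice (SD), a difference of 0.35 ± 0.09 (SE), or 1.27-fold (95% interval 1.12 to 1.45, limma adjusted p = 0.0041). Within slides 1 to 4 it was 0.24, 0.17, 0.79 and 0.17. The value of slide 3 rests on the library labelled WT number 4, the only WT array there, and without that library the difference over the remaining arrays was 0.29 (limma adjusted p = 0.011). With Agilent's own log ratio in place of the loess ratio Manf differed by 0.31 and no longer passed (limma adjusted p = 0.087). Its probe lies at chr9:106791278-106791337 (minus strand, mm9).

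The members Hspa5, Hsp90b1 and Sdf2l1 did not pass the test. Hspa5 encodes BiP, the ER Hsp70, whose mRNA is a standard readout of the response. Its log2 ratios were −0.29 to 0.33 (median 0.06) in UCP1-TG mice and −0.55 to 0.20 (median −0.05) in WT mice, with overlapping groups. The difference was 0.22 ± 0.11 (SE, 95% interval −0.02 to 0.46, limma adjusted p = 0.161). Within slides 1 to 4 it was −0.05, −0.11, 0.85 and 0.04, and without the library labelled WT number 4 it was 0.13 (limma adjusted p = 0.372). Other single arrays moved it up, to 0.28 without WT mouse 1 and to 0.28 without UCP1-TG mouse 3 (limma adjusted p = 0.069 and 0.058). The interval thus held no difference and also a rise of up to 1.37-fold. The probe of Hspa5 lies at chr2:34631913-34631972 (plus strand, mm9).

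Hsp90b1 encodes GRP94, the Hsp90 of the ER. Its log2 ratios were −0.53 to 0.67 (median −0.11) in UCP1-TG mice and −0.62 to 0.68 (median −0.33) in WT mice. A single mouse of each group stood well above the others, UCP1-TG mouse 2 at 0.67 and WT mouse 1 at 0.68, and both of these arrays were on slide 1. The difference was 0.14 ± 0.19 (SE, 95% interval −0.26 to 0.54, limma adjusted p = 0.626), the widest interval of the 10 members. It moved with single arrays, to 0.01 without UCP1-TG mouse 2, to 0.32 without WT mouse 1 and to 0.06 without the library labelled WT number 4 (limma adjusted p = 0.973, 0.129 and 0.855). Sdf2l1, an ER protein that works with BiP and its J-domain partners, had log2 ratios of −0.21 to 0.13 (median −0.08) in UCP1-TG mice and of −0.95 to 0.21 (median −0.24) in WT mice. Its WT spread was wide, with the library labelled WT number 4 at −0.95 and the next WT array at −0.42. The difference was 0.25 ± 0.14 (SE, 95% interval −0.04 to 0.53, limma adjusted p = 0.178), and 0.11 without that library (limma adjusted p = 0.456). Without WT mouse 5, the highest WT array, it was 0.34 (limma adjusted p = 0.0501).

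Creld2 and Dnajc3 had negative differences that did not pass the test. Creld2 encodes an ER protein with disulphide-handling activity that is also secreted, and its probe is spotted 10 times on each array. Its log2 ratios were −0.44 to −0.03 (median −0.18) in UCP1-TG mice and −0.57 to 0.16 (median −0.08) in WT mice. The UCP1-TG mice lay inside the WT range, and the difference was −0.06 ± 0.09 (SE, 95% interval −0.26 to 0.13, limma adjusted p = 0.651). The low end of that range was the library labelled WT number 4, with the other WT mice at −0.14 to 0.16, and without it the difference was −0.15 (limma adjusted p = 0.140), against −0.01 without WT mouse 1 and −0.02 without UCP1-TG mouse 3. The SD between its 10 spots on an array was 0.058 to 0.235 (median 0.125), against SDs between mice of 0.13 in UCP1-TG and 0.24 in WT. Dnajc3 encodes p58IPK, a BiP co-chaperone also described as an inhibitor of eIF2-alpha kinases. Its log2 ratios were −0.26 to 0.15 (median −0.16) in UCP1-TG mice and −0.15 to 0.36 (median −0.00) in WT mice, a difference of −0.14 ± 0.08 (SE, 95% interval −0.32 to 0.03, limma adjusted p = 0.214). It was −0.08 without WT mouse 3, the highest of the 13 mice. Under median centring without loess both differences were above 0, at 0.17 for Creld2 and 0.06 for Dnajc3, against the 0.14 of the median gene in that setting.

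Xbp1 and Edem1, the remaining members, did not pass the test. Xbp1 had log2 ratios of −0.06 to 0.40 (median 0.18) in UCP1-TG mice and of −0.39 to 0.34 (median −0.09) in WT mice. WT mouse 6, at 0.34, was above 6 of the 7 UCP1-TG mice. The difference was 0.21 ± 0.10 (SE, 95% interval 0.00 to 0.42, limma adjusted p = 0.118). It passed in 3 of the 27 other settings that gave a test. These were Agilent's own log ratio (0.26, p = 0.044), the authors' value table (0.32, p = 0.029) and the fit without WT mouse 6 (0.29, p = 0.022), all limma adjusted p. Without the library labelled WT number 4 it was 0.15 (limma adjusted p = 0.273). Whether the Xbp1 probe reads the spliced form, the unspliced form or both was not determined. Edem1, a lectin that hands misfolded glycoproteins to degradation, had log2 ratios of −0.18 to 0.24 (median −0.06) in UCP1-TG mice and of −0.39 to 0.12 (median −0.07) in WT mice. Its medians were close together, and the difference was 0.08 ± 0.08 (SE, 95% interval −0.10 to 0.25, limma adjusted p = 0.517). Without the library labelled WT number 4, the lowest WT array, it was 0.02 (limma adjusted p = 0.882), without UCP1-TG mouse 7 it was 0.03 and without WT mouse 6 it was 0.12.

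**Figure D2:**
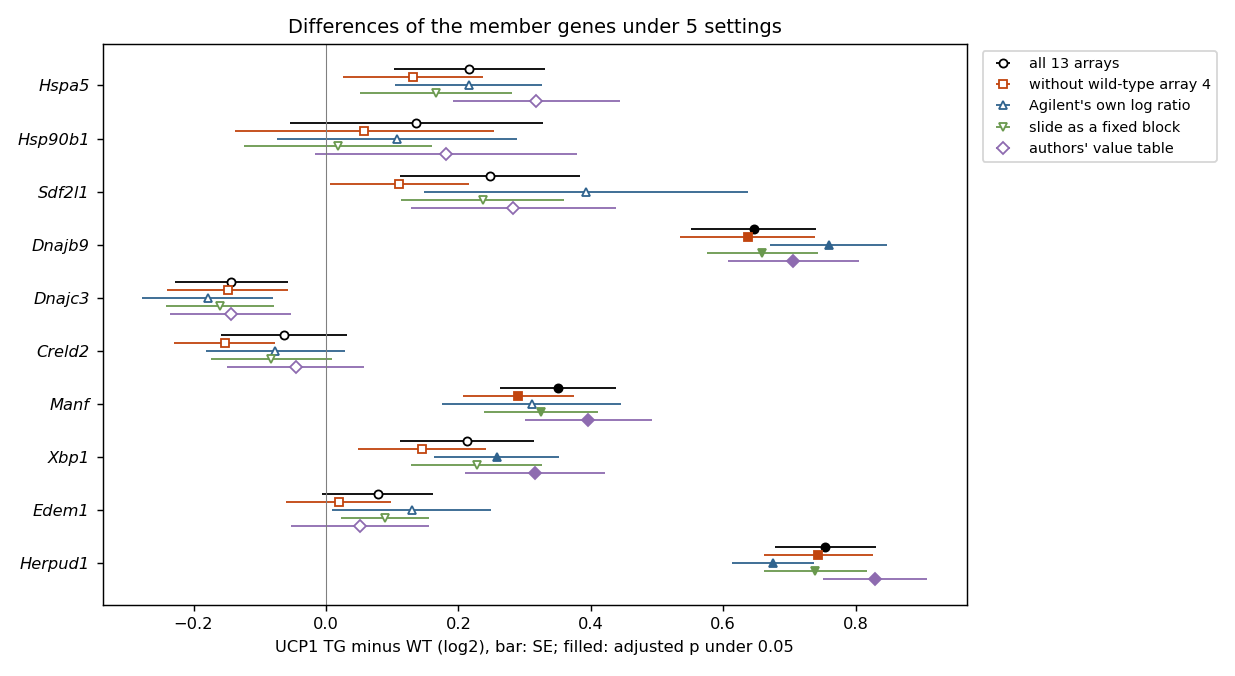
Difference of each member, UCP1-TG minus WT on the log2 scale (horizontal axis), under 5 settings, with the SE as a bar and a filled symbol where the limma adjusted p was under 0.05. Herpud1 and Dnajb9 are filled in all 5 settings, Manf in all but Agilent's own log ratio, and Xbp1 in that setting and in the authors' value table.

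The members differed in how far they depended on the slide. Each slide is 1 physical array slide, as the file headers number it, and each was scanned once. The median of the 10 differences was 0.03, −0.01, 0.71 and 0.05 within slides 1 to 4. On slide 3, which held 2 UCP1-TG arrays and the library labelled WT number 4, all 10 members had a positive difference, and Hspa5 (0.85), Sdf2l1 (0.95) and Manf (0.79) were far above their values on the other slides. That library was the lowest of all 13 arrays in 7 of the 10 members (Hspa5, Hsp90b1, Sdf2l1, Creld2, Manf, Xbp1 and Edem1), while it was the lowest array in 6.66% of all genes. Herpud1 and Dnajb9 were not among these 7, and their differences without it were 0.74 and 0.64. With slide as a fixed block in the fit, 3 members were higher and 0 lower, and the median difference was 0.20.

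**Figure D3:**
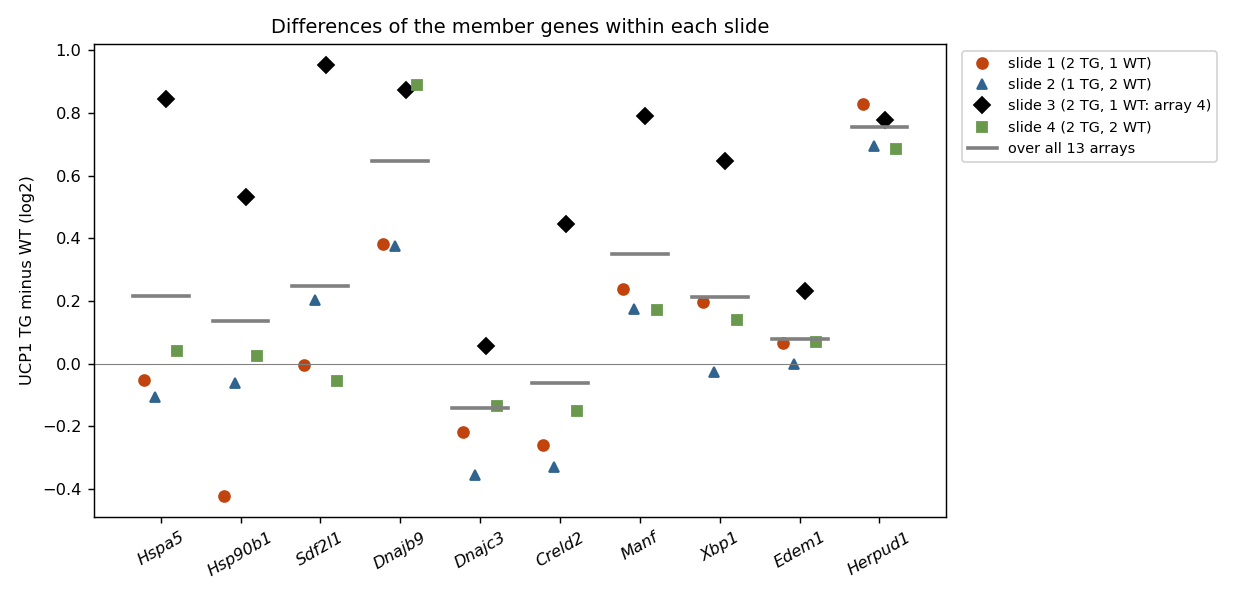
Difference of each member, UCP1-TG minus WT on the log2 scale (vertical axis), within each of the 4 slides, with a grey bar for the difference over all 13 arrays. The diamonds of slide 3 lie well above the other slides for Hspa5, Sdf2l1 and Manf, while the 4 symbols of Herpud1 lie between 0.68 and 0.83.

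Hspa5 was set against each other member among mice of 1 genotype. Over the 7 UCP1-TG mice, Pearson's r of Hspa5 with each of the other 9 members was −0.06 to 0.92 (median 0.66), and over the 6 WT mice −0.12 to 0.91 (median 0.78). Of these 18 pairs, 1 passed after Benjamini-Hochberg adjustment, Hspa5 with Creld2 in UCP1-TG mice (r = 0.924, exact permutation p = 0.0016, adjusted p = 0.029). Its Spearman's rho was 0.893 (exact permutation p = 0.012, adjusted p = 0.100), which did not pass, and r was 0.909 without the 2 mice farthest from the median of Hspa5. In WT mice the same pair had r = 0.911 (exact permutation p = 0.014, adjusted p = 0.096), which became 0.129 without the 2 farthest mice. Hspa5 with Dnajb9 had r = 0.211 in UCP1-TG mice (exact permutation p = 0.649, adjusted p = 0.779) and r = −0.120 in WT mice (exact permutation p = 0.810, adjusted p = 0.857). All points of a pair come from the same arrays, so that anything that shifts a whole array enters both genes. The passing pair did not pass under 3 other processings, given with the settings at the end.

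The other genes of the pathway were read as 4 lists, chosen with earlier results of these data known. Of all genes tested, 16.9% were higher and 16.1% lower (limma, adjusted p under 0.05). Of 13 sensors and transducers, 4 were higher and 0 lower, with a median difference of −0.04. At an unadjusted p under 0.05, which at least 7225 of the 17257 genes passed in either direction, they were the same 4 and 0. Ern1, which encodes IRE1, differed by 1.36 ± 0.08 (limma adjusted p = 8.3e-11), with log2 ratios of 0.28 to 0.82 (median 0.37) in UCP1-TG mice and of −0.88 or lower (median −0.94) in all 6 WT mice. Its groups were far apart, but its probes disagreed: among 4 probes, others gave 0.38 (adjusted p over all probes = 3.1e-04) and −0.14 (0.306), and 1 was too dim to keep. Atf6 differed by 1.04 ± 0.09 (limma adjusted p = 4.5e-08), with 0.30 to 0.71 (median 0.42) in UCP1-TG mice and −0.78 to −0.23 (median −0.60) in WT mice. Eif2ak3, which encodes PERK, differed by 0.03 ± 0.06 (95% interval −0.10 to 0.17, limma adjusted p = 0.716). Traf2, an adaptor that binds IRE1, was higher by 0.27 (limma adjusted p = 0.035), though its other probe gave 0.13 (adjusted p over all probes = 0.297) and it lost the call on leaving out WT mouse 1, 2 or 6 or UCP1-TG mouse 2, 4 or 5 (limma adjusted p up to 0.091). Mbtps1, the protease that first cleaves ATF6, was higher by 0.23 (limma adjusted p = 0.0099).

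Of 17 measured ER folding genes other than the members, 8 were higher and 0 lower, against 16.9% and 16.1% of all genes, with a median of 0.17. At an unadjusted p under 0.05 they were 10 and 0, a threshold that at least 7225 of the 17257 genes passed in either direction. Leaving out WT mouse 2, UCP1-TG mouse 4 or UCP1-TG mouse 5 left 5 of them higher. P4hb, a protein disulphide isomerase, was higher by 0.64 ± 0.08 (limma adjusted p = 4.5e-06), Canx, the lectin chaperone calnexin, by 0.45 ± 0.09 (limma adjusted p = 4.1e-04), Uggt1, which marks misfolded glycoproteins, by 0.43 ± 0.08 (limma adjusted p = 5.0e-04), and Ero1l, an oxidase that recharges the isomerases, by 0.40 ± 0.07 (limma adjusted p = 1.9e-04). The size for Ero1l depended on the background correction, at 2.13 with Agilent's own log ratio and 0.71 with a normexp offset of 16. Of 16 measured genes of degradation and translocation, 6 were higher and 2 lower, with a median of 0.06. Derl1, a channel-forming protein of degradation, was higher by 0.94 ± 0.08 (limma adjusted p = 4.5e-08), Os9, a lectin that feeds it, by 0.51 ± 0.05 (limma adjusted p = 5.9e-07), Sec61g of the translocon by 0.37 ± 0.11 (limma adjusted p = 0.016) and Ssr3 of the translocon-associated complex by 0.36 ± 0.08 (limma adjusted p = 9.7e-04). A second probe of Ssr3 gave 0.19 and did not pass (limma adjusted p over all probes = 0.212). Sec61b, a translocon subunit named after its value was seen, was lower, with a difference of −0.32 (limma adjusted p = 0.0024). Hyou1, Edem2 and Derl3 were on the array but too dim to test, with 0, 0 and 2 arrays well above background.

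The genes with the largest differences of the 4 lists were in the ATF4 and CHOP arm. Of its 16 genes, 12 were higher and 2 lower, against 16.9% and 16.1% of all genes. Its median was 0.83 against 0.21 in the members, but members and lists were both chosen with earlier results of these data known. Trib3, a pseudokinase, was higher by 4.58 ± 0.12 (limma adjusted p = 1.1e-15), with log2 ratios of 0.32 to 1.07 in UCP1-TG mice and −4.10 to −3.44 in WT mice. Asns, asparagine synthetase, was higher by 4.15 ± 0.08 (limma adjusted p = 4.9e-18), the transcription factor Atf5 by 2.61 ± 0.09 (limma adjusted p = 8.1e-14) and the stress regulator Nupr1 by 2.19 ± 0.13 (limma adjusted p = 1.4e-10). The 2 lower genes, named after their values were seen, were Ddit4 (−1.46) and Vldlr (−0.86), and neither passed under median centring without loess. Without the library labelled WT number 4 the counts were 12 and 2 in this arm, 4 and 0 among the sensors, 6 and 0 among the folding genes, and 6 and 2 among those of degradation and translocation. The difference between the lists was not tested.

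**Figure D4:**
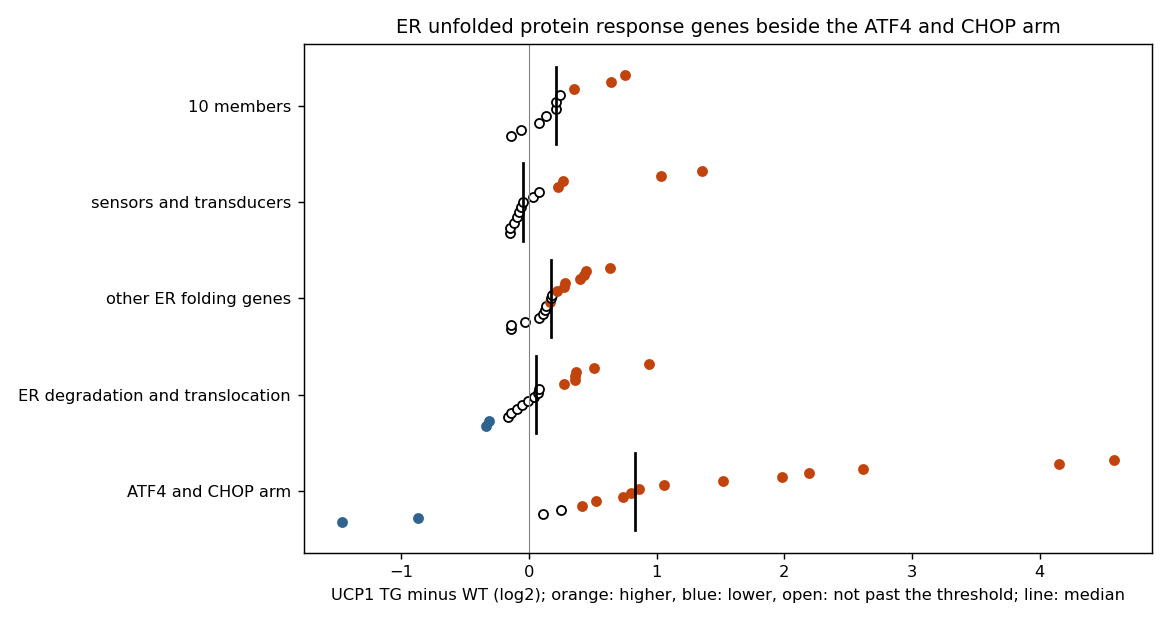
Difference of every measured gene of the 10 members and of 4 further lists, UCP1-TG minus WT on the log2 scale (horizontal axis), in orange where higher, in blue where lower and open where the limma adjusted p was not under 0.05, with the list's median as a line. The medians are 0.21 for the members, −0.04 for sensors, 0.17 for folding genes, 0.06 for degradation and translocation, and 0.83 for the ATF4 and CHOP arm.

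The calls were also read by the promoter elements printed above. None of the 4 members with ERSE passed the test, and of the 15 tested genes with ERSE in their window 2 were higher and 0 lower, with a median difference of 0.11. Those 2 were the chaperone genes Canx and Calr, differing by 0.45 and 0.28. Of the 6 tested genes with ERSE-II, 4 were higher, Herpud1 and the folding gene Dnajb11 among them, and of the 253 with CARE 52 were higher (20.6%) and 38 lower. Of the 92 tested genes with UPRE, 15 were higher (16.3%) and 16 lower, with a median difference of −0.04. Over all 8951 tested genes with a window, 16.7% were higher. These counts describe the windows and were given no test.

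Markers of other cells were read beside these values, since in whole muscle fewer cells of a type and less RNA per cell cannot be told apart. All 6 markers of skeletal muscle were measured, with 1 higher and 4 lower in UCP1-TG muscle, and their summed normalised Cy5 signal was 800830 to 889555 in UCP1-TG and 893960 to 1090325 in WT mice, ranges that did not overlap. All of them were well above background on all 13 arrays. Of 6 markers of white adipocytes, 5 were measured and all 5 were higher (median difference 0.91), with sums of 19192 to 32343 in UCP1-TG and 8787 to 14211 in WT mice, ranges that did not overlap, while Lep was above background on 0 arrays. For plasma and B cells, whose ER response genes are abundant, 5 of 9 markers were measured and 1 was higher, with sums of 456 to 518 in UCP1-TG and 468 to 565 in WT mice, and Igj was above background on 2 arrays. Of the macrophage markers 5 of 6 were measured, with 0 higher and 1 lower and sums of 2244 to 2623 in UCP1-TG and 2429 to 3394 in WT mice. All 6 fibroblast markers were measured, with 2 higher and sums of 44106 to 63629 in UCP1-TG and 43087 to 58504 in WT mice, and all 5 endothelial markers, with 1 lower and sums of 1876 to 2486 in UCP1-TG and 1992 to 2636 in WT mice. The part of the adipocyte and muscle markers in the differences of Herpud1, Dnajb9 and Manf was not tested.

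The Cy3 channel gave a check of the common pool. The Cy3 signal of the 11 member probes differed between UCP1-TG and WT arrays by −0.04 to 0.06 on the log2 scale, with a limma adjusted p of 1.0 for each. In the Cy5 channel alone Herpud1 differed by 0.77, Dnajb9 by 0.62 and Manf by 0.38, with limma adjusted p over all probes of 6.2e-07, 9.3e-05 and 0.0040. The differences of these 3 genes thus lay in the channel that held the RNA of the single mice.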

How the data were processed

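RNA of 13 single mice (Cy5) was hybridised against a common pool (Cy3) without a dye swap, from 200 ng of total RNA per mouse, per the labels' protocols. Per the file headers, the deposited files of the scanner give the intensity of spots and their local background in both channels, well-above-background, outlier and control flags with other values, and a log10 ratio of the processed signals, written by Agilent Feature Extraction 10.5.1.1, also per the submitters' processing notes. The authors' deposited value table (25583 rows) was taken as log2 Cy5 intensity, since its columns correlated at 0.996 to 0.999 with log2 Cy5 and all had a median of 7.58. How it was background-corrected is not given in the sources used here, and it was normalised with other samples per the series' design text. It served as an alternative.

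Mean signals were corrected with normexp (offset 50) and normalised by loess within each array in limma 3.58.1 (R 4.3.3). Of 62976 spots per array, the 3671 controls and 278 to 377 outlier spots were left out, while 0 spots were saturated. Spots of a probe were averaged, and a probe was kept if its Cy5 signal was well above background on 6 or more of the 13 arrays (22715 of 55681). A gene was represented by its brightest kept probe, under the names that the array design gives. Differences are UCP1-TG minus WT (lmFit and eBayes, all 13 arrays, no covariate, two-sided, Benjamini-Hochberg over 17257 genes, threshold 0.05). The fit was also run on simulated ratios with known differences and independent noise for each gene. That simulation held no slide effect and no wrong label, so it does not bear on either. Where outlier spots left a missing value (123 genes), the fit used the remaining arrays. Labels call the samples individual mice.

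All 10 members, Ucp1, Fgf21, the 3 sensors and, of each further list, the 4 members with the largest difference past the threshold were named, and other named genes were chosen after their values were seen. Single values of some list genes are not reported here. The members and lists were chosen with earlier results of these data known. Same-numbered mice of the groups did not deviate together (correlations −0.23 to 0.23), so the numbers were not taken as pairs. Promoter sequences are from RefSeq (GRCm38.p6), and probe coordinates are mm9, per the file headers. Alternatives were other backgrounds, scalings, filters and probe rules, slide and replicate number as blocks, each array left out, and the authors' table.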

Additional observations from a re-analysis of the deposited data

Results flagged for a closer look

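In 58 groups of mice (29 named genes, each in UCP1-TG and in WT), a gap test for a single mouse far from the others of its group, which chance passes in about 1 group in 20, picked out 5 values, from 4 mice. UCP1-TG mouse 6 had a log2 ratio of 0.82 for Ern1, with the next UCP1-TG mouse at 0.39. UCP1-TG mouse 2 had 1.17 for Atf5, with the next at 0.72. WT mouse 1 had 0.68 for Hsp90b1, the member with the widest spread, with the next WT mouse at −0.23. The library labelled WT number 4 had 0.45 for Ucp1, with the next WT mouse at −2.82. WT mouse 1 had −0.44 for Os9, with the next at −0.39, in a group whose whole range was narrow.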

How the results depend on the processing

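The calls of Herpud1 and Dnajb9 held under every setting that gave a test. With all 13 leave-one-out fits, the number of members higher was 3 to 4, the number lower 0, the median of the members 0.12 to 0.29, the genes higher 2581 to 2937 and the genes lower 2528 to 2771, and the difference in probes above background 666 to 1272 (exact permutation p of 0.067 to 0.333). Median centring without loess called 1039 genes higher and 264 lower, gave a member median of 0.47 against 0.14 for all genes, turned Dnajc3 to 0.062 and Creld2 to 0.17, gave Hspa5 0.53, Xbp1 0.51 and Hsp90b1 0.42, none of which passed, took the call from Manf (0.56, limma adjusted p = 0.061), left 2 sensors, 2 folding genes and 2 genes of degradation and translocation higher with 0 lower, left 0 genes of the ATF4 and CHOP arm lower, and made 12 of the 18 pairs of Hspa5 pass. The cause was not tested. Agilent's own log ratio, the Cy5 signal alone and the authors' table each left 0 of these pairs. Within slides 1 to 4 the member median was 0.030, −0.013, 0.71 and 0.054, and Ucp1 was −0.13 within slide 3, where the library labelled WT number 4 is the only WT array. A further Ern1 probe gave −0.14, and Eif2ak3 was −8.6e-04 in the authors' table. Sec61g lost its call with Agilent's ratio (0.21), the Cy5 signal alone (0.34) and median centring (0.69), and Canx, Uggt1, Mbtps1 and Ssr3 lost theirs under median centring alone among the settings for the same probe. Traf2 lost its call with Agilent's ratio (0.23), the Cy5 signal alone (0.26), no filter on dim probes (0.27) and median centring (0.51). The mean over the probes of a gene made 1 sensor lower and left 1 gene of degradation and translocation lower. With Agilent's ratio Ern1 was 2.07 and Atf6 1.57, and with the mean over their probes Ern1 was 0.53 and Dnajb9 0.43. Ero1l was 2.13 with Agilent's ratio and 0.71 with a normexp offset of 16. The folding list had 5 to 8 genes higher when single arrays were left out. Replicate number as a block, though the numbers do not pair the mice, called 2696 genes higher and 2606 lower with 3 members higher, and 1 of the 6 numbers had its own partner as the best match. Dim signal limits Sdf2l1, Edem1 and the second Dnajb9 probe, with lowest Cy5 signals of 85.5, 108 and 43.9 over backgrounds near 30.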
